A study of Homo sapiens with 4 samples.

Results

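The genes described here encode the proteins of the cytosolic ribosome, the machine that translates messenger RNA in the cytoplasm. They were taken from a table of read counts per gene by symbol: protein-coding genes whose symbol is RPSA, RPLP0, RPLP1 or RPLP2, or starts with RPS (small, 40S subunit) or RPL (large, 60S subunit) followed by a digit, without the RPS6K kinases and without pseudogenes. Of 20515 rows, 89 met this rule. By textbook knowledge 77 of them encode core proteins of the ribosome (31 small and 46 large subunit), and 7 are second genes for the same protein (RPL3L, RPL10L, RPL22L1, RPL26L1, RPL36AL, RPL39L and RPS27L). A further 3 are read-through loci that join a ribosomal protein gene to its neighbour (RPL17-C18orf32, RPL36A-HNRNPH2 and RPS10-NUDT3), and 2 carry such a symbol but encode no protein of the mature ribosome (RPS19BP1 and RPL7L1). The libraries were made from poly(A) RNA of T47D, an established human luminal breast cancer cell line, with 2 libraries from cells treated with baicalein, a plant flavone, and 2 from controls listed as having no treatment. The sources used here give no dose, duration or vehicle.

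A human ribosome contains 1 copy of most of these proteins, the acidic stalk proteins RPLP1 and RPLP2 being the exception, so cells need their messages in balanced amounts. Most of these messages start with a C followed by an unbroken run of C and U, the terminal oligopyrimidine or TOP motif, which is read by the RNA-binding protein LARP1 under control of the kinase complex mTORC1. Control through the TOP motif acts mainly on translation, whereas read counts show only how much message was present. Dividing cells devote a large share of their messages to this family.

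Total counts were 56732569 and 38597207 in the baicalein libraries and 45341857 and 45618604 in the controls. Levels are given as CPM, counts divided by the library total and brought to a common scale with TMM factors, for replicate 1 and then replicate 2 of each group. Log2 fold changes are baicalein over control with their standard error, and p-values were taken from the quasi-likelihood test of edgeR and adjusted by Benjamini-Hochberg over 18369 tested genes, a gene being called below 0.05. The controls differed from each other more than the baicalein libraries did: the log2 ratio of replicate 1 over replicate 2 across the core genes had an SD of 0.031 in baicalein and 0.066 in control, with extremes of -0.15 for RPL7A and 0.19 for RPL39 in control. All 9 luminal markers were detected, with a summed level of 7295 and 7412 CPM in baicalein and 12879 and 14177 CPM in control; 7 were called lower, CDH1 higher and EPCAM neither, KRT8 averaging 2224 CPM in baicalein and 5165 CPM in control and ESR1 averaging 38.5 CPM in baicalein and 177 CPM in control. Of 9 markers of other cell types 3 were in the table, summing to 150.05 and 140.02 CPM in baicalein and 90.1 and 100.5 CPM in control. COL1A1 averaged 145 CPM in baicalein and 95.2 CPM in control. COL1A2 had 1 and 0 counts in baicalein and 5 and 5 counts in control, and PTPRC had 5 and 6 counts in baicalein and 0 and 0 in control. DCN, CD3E, PECAM1, VWF, KRT5 and KRT14 had no row under their symbols. The part of these markers in the results below was not tested. In such bulk samples fewer cells of a type and less RNA per cell cannot be told apart.

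The start sites show what most of the family has in common. The windows below run over 30 bases before and 15 bases from the annotated first base, on the strand of the gene, from RefSeq on GRCh38.p14, with an initial C and the C and T letters that follow it from the first base in capitals. They are shown for some genes with larger changes, for stalk proteins, for RPL35, and for some paralogs with or without their partners. RPL10, the partner of RPL10L, has 3 annotated starts and is not shown.
RPLP0: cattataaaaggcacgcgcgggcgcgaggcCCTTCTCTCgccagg
RPLP1: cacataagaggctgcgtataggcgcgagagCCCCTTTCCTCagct
RPL12: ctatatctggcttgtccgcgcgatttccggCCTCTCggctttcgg
RPL10A: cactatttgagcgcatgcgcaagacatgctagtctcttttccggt
RPS12: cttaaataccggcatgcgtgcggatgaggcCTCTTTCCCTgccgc
RPL35: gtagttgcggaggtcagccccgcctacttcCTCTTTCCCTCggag
RPS26: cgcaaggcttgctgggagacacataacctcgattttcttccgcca
RPL22: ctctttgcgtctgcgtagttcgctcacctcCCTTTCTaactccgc
RPL22L1: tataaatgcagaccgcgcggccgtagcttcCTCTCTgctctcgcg
RPS27: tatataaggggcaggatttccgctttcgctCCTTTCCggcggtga
RPS27L: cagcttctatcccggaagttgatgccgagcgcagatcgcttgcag
RPL10L: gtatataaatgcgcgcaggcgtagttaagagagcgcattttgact
They lie at chr12:120201097-120201141 (minus strand) for RPLP0, chr15:69452788-69452832 (plus) for RPLP1, chr9:127451392-127451436 (minus) for RPL12, chr6:35468371-35468415 (plus) for RPL10A and chr6:132814539-132814583 (plus) for RPS12. RPL35 lies at chr9:124861943-124861987 (minus), RPS26 at chr12:56041888-56041932 (plus), RPL22 at chr1:6199581-6199625 (minus) and RPL22L1 at chr3:170870181-170870225 (minus). RPS27 lies at chr1:153990732-153990776 (plus), RPS27L at chr15:63157463-63157507 (minus) and RPL10L at chr14:46651767-46651811 (minus).

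RPLP0, RPLP1, RPL12, RPS12, RPL35, RPS27 and RPL22 with its paralog RPL22L1 opened on such a run, while RPS27L and RPL10L did not. In RPL10A and RPS26 the first annotated base was not C, and a run of C and T lay a few bases further in. Of the 62 core genes with an entry in the promoter table, 46 (74.2%) had a run of at least 5 letters at an annotated start, against 1 of 5 paralogs (20%), 7.05% of tested genes and 5.14% of all 27305 genes in that table. With the run allowed to begin within 5 bases of the start, a setting chosen after seeing the data, the shares were 85.5% of the core genes and 25.2% of all genes. Among the 52 core genes with 1 annotated start, 40 had the run, with a median length of 8 letters and a range of 5 to 19.

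In the 250 bases before to 50 bases after a start, searched on both strands, the motif CCGGAAG, a binding core of ETS factors such as GABPA, was found in 22 core genes (35.5%), in 20.8% of tested genes and in 12.2% of all genes. The palindrome CACGTG, the E-box letters read by MYC, was found in 4 core genes (6.45%), in 12.2% of tested genes and in 8.77% of all genes. TATAAA was found in 5 core genes (8.06%), a share near the 8.56% of tested genes, and in 14.0% of all genes. None of these motifs contains another.

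Most ribosomal protein messages were higher in baicalein, by a small amount and within a narrow band. Of 88 members tested, 56 rose (63.6%, where 37.4% of all tested genes were called higher), 10 fell (11.4%, where 37.6% of all tested genes were called lower) and 22 did not pass, and with library totals as the only scaling the split was 32 higher and 13 lower (32.3% and 42.1% of all tested genes). In either direction 75% of the members were called, the share of all tested genes that were called being 75%. The median log2 fold change of the members was 0.15, against 0.00 for all tested genes. Library totals alone moved the median of all genes to -0.10 and that of the members to 0.05, a shift common to all genes. Without baicalein replicate 1 or baicalein replicate 2 fewer members were called lower, and the core genes had medians of 0.16 and 0.19. The share of all tested genes called in these fits is not given here. The remaining member, RPL3L, a form of RPL3 made in heart and skeletal muscle, had 2 and 1 counts in baicalein and 9 and 8 counts in control, and was not tested.

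The core genes moved together closely. Their log2 fold changes had a median of 0.17 and an SD of 0.16, ranging from -0.34 for RPS26 to 0.70 for RPL10A, with a median standard error of 0.042. All tested genes had an SD of 1.24, and the 4676 non-members of at least 50 CPM had an SD of 0.89 around a median of 0.08. A change smaller than 1.5-fold was estimated for 97.4% of the core genes, 60.5% of those abundant non-members and 51.1% of all tested genes. Of the core genes, 18 lay between 0 and 0.1, 39 between 0.1 and 0.3, 13 above 0.3 and 7 below 0, and library totals alone turned all 18 of the first band negative. When the test asked for a change beyond 1.5-fold, 2 members were higher (RPL10A and RPL22L1) and 2 lower (RPL39L and RPL10L), with 16.8% of all tested genes called higher and 19.5% lower.

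**Figure D1:**
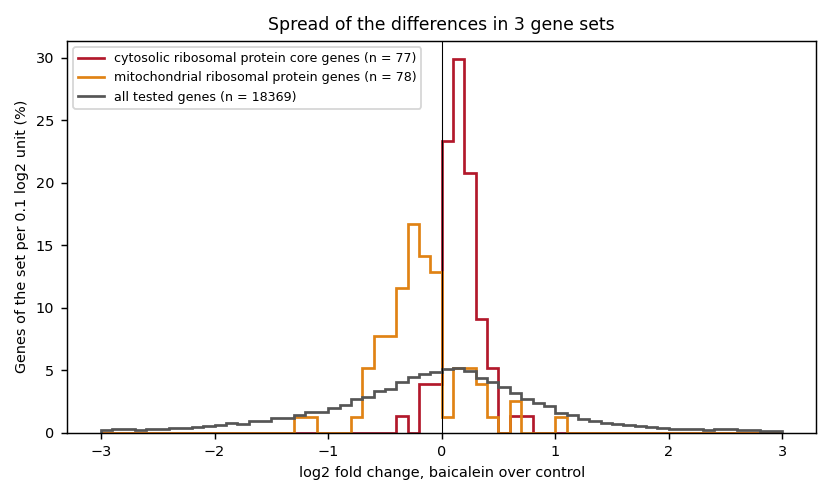
Distribution of log2 fold changes (baicalein over control, TMM scaling) as the percent of each gene set per 0.1 log2 unit, for 77 core cytosolic ribosomal protein genes, 78 mitochondrial ribosomal protein genes and 18369 tested genes. The cytosolic set forms a narrow peak around its median of 0.17, the mitochondrial set peaks below 0 around -0.22, and all genes spread far more widely; library totals alone would shift the median of all genes by about -0.10.

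The members held 4.43% and 4.39% of all counts in the baicalein libraries and 4.15% and 4.19% in the controls (mean 4.41 ± 0.0337% in baicalein and 4.17 ± 0.0270% in control, SD, n = 2 each). Both baicalein libraries lay above both controls, at a ratio of 1.06. With 2 libraries a group, the exact permutation test cannot give a two-sided p below 0.333, which is the value here. Mitochondrially encoded genes took 9.16% and 8.89% of counts in baicalein and 7.95% and 8.38% in control, and without them the ratio of the members' share was 1.07.

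The small and the large subunit had like counts. Of the 31 core small subunit genes, 21 rose, 1 fell and 9 did not pass (71.0% called in either direction, 75% over all tested genes), with a median of 0.16 (SD 0.15 across genes). Of the 46 core large subunit genes, 33 rose, 3 fell and 10 did not pass (78.3% called in either direction), with a median of 0.18 (SD 0.17). Higher calls made up 67.7% of the small and 71.7% of the large subunit genes, beside 37.4% of all tested genes. Library totals alone left 10 higher and 6 lower among all 34 small subunit symbols and 22 higher and 7 lower among the 54 tested large subunit symbols, where 32.3% of all tested genes were higher and 42.1% lower. Whether the subunits differ was not tested.

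**Figure D2:**
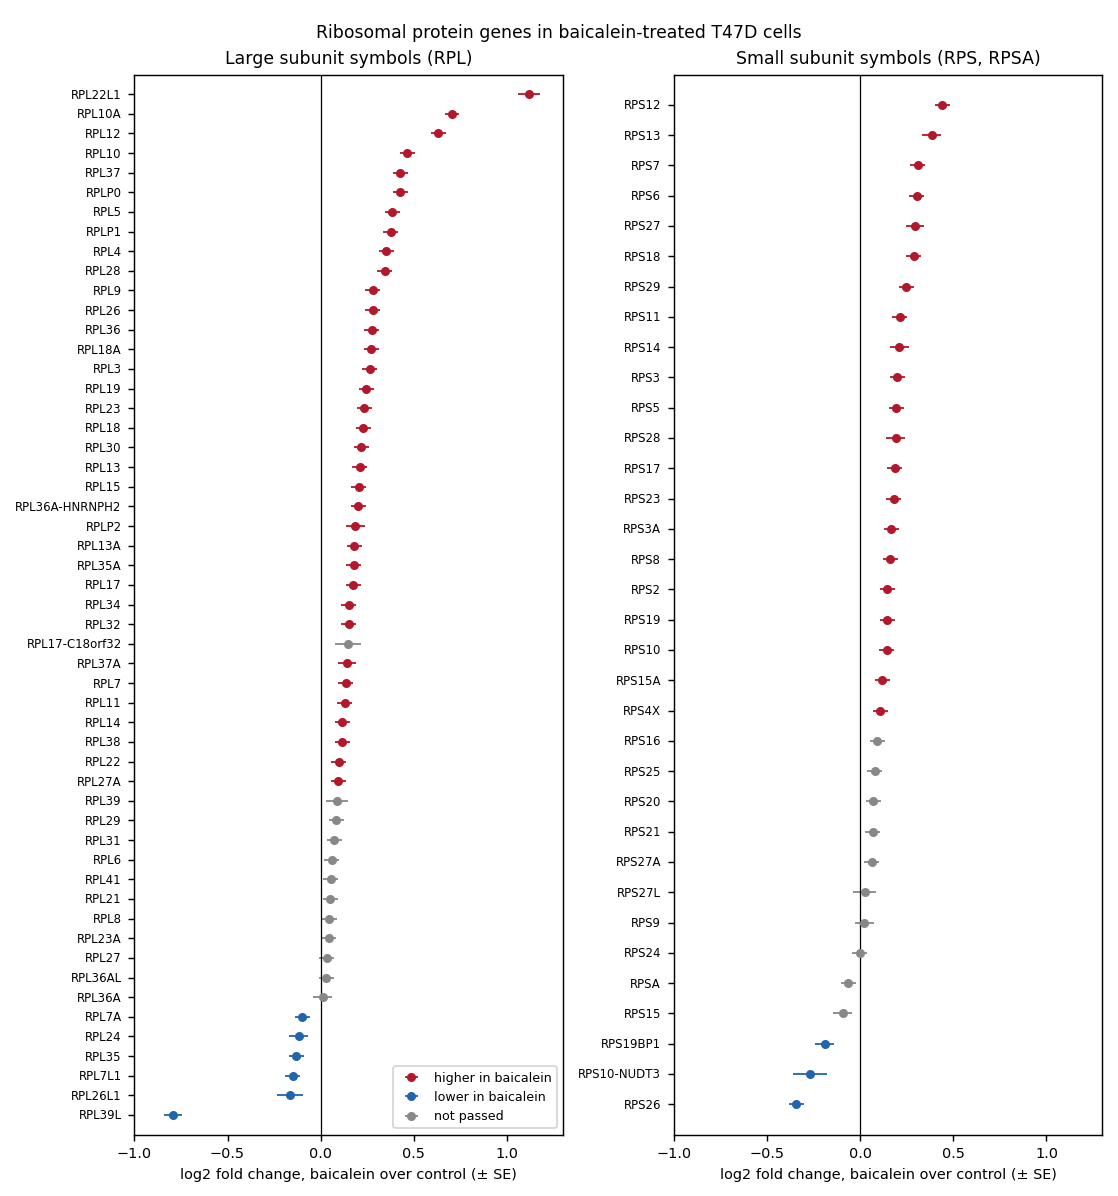
Log2 fold change (baicalein over control) with its standard error for each tested member except RPL10L, large subunit symbols on the left and small subunit symbols on the right, red where called higher, blue where called lower and grey where the test was not passed. Most members lie between 0 and 0.5; RPL22L1 at 1.12 and RPL39L at -0.79 lie farthest out, and 75 members lie above 0, against 55 when library totals are the only scaling.

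The 2 largest core rises were in genes for mobile arms of the large subunit. RPL10A forms the L1 stalk, which moves spent tRNA out of the ribosome. It had 690.3 and 687 CPM in baicalein, against 417 and 428 CPM in control, a log2 difference of 0.70 with a standard error of 0.04 (adjusted p = 3.63e-13), written below as 0.70 ± 0.04. RPL12, at the base of the stalk that recruits elongation factors, had 867 and 832 CPM in baicalein, against 543 and 554 CPM in control (0.63 ± 0.04, adjusted p = 3.17e-12). For both genes the replicates of a group lay close together and the groups were far apart. RPLP0, the scaffold of that stalk, had 2026 and 2039.7 CPM in baicalein, against 1499 and 1528 CPM in control (0.43 ± 0.04, adjusted p = 7.61e-10). Its partners RPLP1 and RPLP2, which carry the flexible tails that contact elongation factors, rose too. RPLP1 had 482 and 472 CPM in baicalein, against 375 and 360.4 CPM in control (0.37 ± 0.04, adjusted p = 3.57e-08). RPLP2 had 228 and 223 CPM in baicalein, against 192 and 204 CPM in control (0.19 ± 0.05, adjusted p = 0.000797). In all 4 stalk genes the groups did not overlap, and RPLP2 had the smallest estimate. Here as elsewhere, such separation was not counted over all genes, and 75% of all tested genes were called in either direction. RPL10A and RPL12 kept their direction and their call in every alternative setting except that RPL12 missed the test beyond 1.5-fold (adjusted p = 0.116).

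Further large subunit genes followed. RPL10, which joins late, near the site of peptide bond formation, had 598 and 579 CPM in baicalein, against 418 and 436 CPM in control (0.46 ± 0.04, adjusted p = 1.07e-09). Its exons overlap those of DNASE1L1 on the opposite strand over 1649 bases, and the sources used here do not say whether counting used strand. RPL37, a zinc-binding protein of the large subunit, had 601 and 571 CPM in baicalein, against 445 and 427 CPM in control (0.43 ± 0.04, adjusted p = 5.80e-09). RPL4, whose long loop lines the exit tunnel, had 1909 and 1908 CPM in baicalein, against 1508 and 1485 CPM in control (0.35 ± 0.04, adjusted p = 1.92e-08). In all of them both baicalein libraries exceeded both controls.

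RPL5 and RPL11, which with 5S rRNA form the particle that binds MDM2 when ribosome assembly is disturbed, differed in size of change. RPL5 had 587 and 579 CPM in baicalein, against 453 and 441 CPM in control (0.38 ± 0.04, adjusted p = 1.48e-08). RPL11 had 642 and 623.5 CPM in baicalein, against 553 and 604.9 CPM in control (0.13 ± 0.04, adjusted p = 0.0134). The RPL11 controls lay farther apart than its baicalein libraries, and its call was lost with upper quartile scaling (0.10), with library totals (0.03), with a correction for exon length and GC content (0.08) and in fits without baicalein replicate 1 or baicalein replicate 2. It also missed a threshold of 0.01 and the test beyond 1.5-fold. The difference between RPL5 and RPL11 was not tested.

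In the small subunit RPS12 and RPS13 rose most. RPS12, at the beak of the 40S subunit, had 235 and 235 CPM in baicalein, against 176 and 170.0 CPM in control (0.44 ± 0.04, adjusted p = 4.93e-09). RPS13, a protein that binds 18S rRNA, had 130.5 and 125 CPM in baicalein, against 102 and 93.8 CPM in control (0.38 ± 0.05, adjusted p = 1.19e-07). In both genes the groups were well apart. RPS6, the substrate of the S6 kinases, had 1019 and 1006 CPM in baicalein, against 824 and 816 CPM in control (0.30 ± 0.04, adjusted p = 3.45e-07); like RPS7 it is named outside the rule for named genes and was chosen after its values were seen. RPS7 had 361 and 352 CPM in baicalein, against 291 and 284.5 CPM in control (0.31 ± 0.04, adjusted p = 7.48e-07). None of these small subunit genes reached 1.5-fold.

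Only 4 of the 77 core genes were called lower (5.19%, beside 37.6% of all tested genes), and 54 higher (70.1%, beside 37.4%). The 4 were RPS26, RPL35, RPL24 and RPL7A, and RPS26 stood out in size. RPS26 sits at the channel where mRNA leaves the 40S subunit and contacts the message upstream of the start codon. It had 163 and 158 CPM in baicalein, against 205 and 202 CPM in control, lower by a log2 change of -0.34 ± 0.04 (adjusted p = 2.49e-07). Its groups did not overlap, its estimate stayed between -0.45 and -0.31 in all settings, and the call was lost only in the test beyond 1.5-fold. RPL35, near the exit of the peptide tunnel, had 537 and 509.8 CPM in baicalein, against 572 and 574 CPM in control (-0.13 ± 0.04, adjusted p = 0.00748), a call lost without either baicalein library, and a correction for exon length and GC content turned it to 0.02. RPL24, which forms a bridge between the subunits, had 416 and 411 CPM in baicalein, against 428 and 471 CPM in control (-0.12 ± 0.05, adjusted p = 0.0231). RPL7A had 1526 and 1511 CPM in baicalein, against 1545 and 1711 CPM in control (-0.10 ± 0.04, adjusted p = 0.0446). For RPL24 and RPL7A the gap between the controls was larger than the difference of the group means, and without control replicate 2 the values were -0.04 for RPL24 and -0.02 for RPL7A, neither called. Both calls were also lost without either baicalein library, and that of RPL7A with DESeq2 size factors, in DESeq2 and with the filter of 50 counts.

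**Figure D3:**
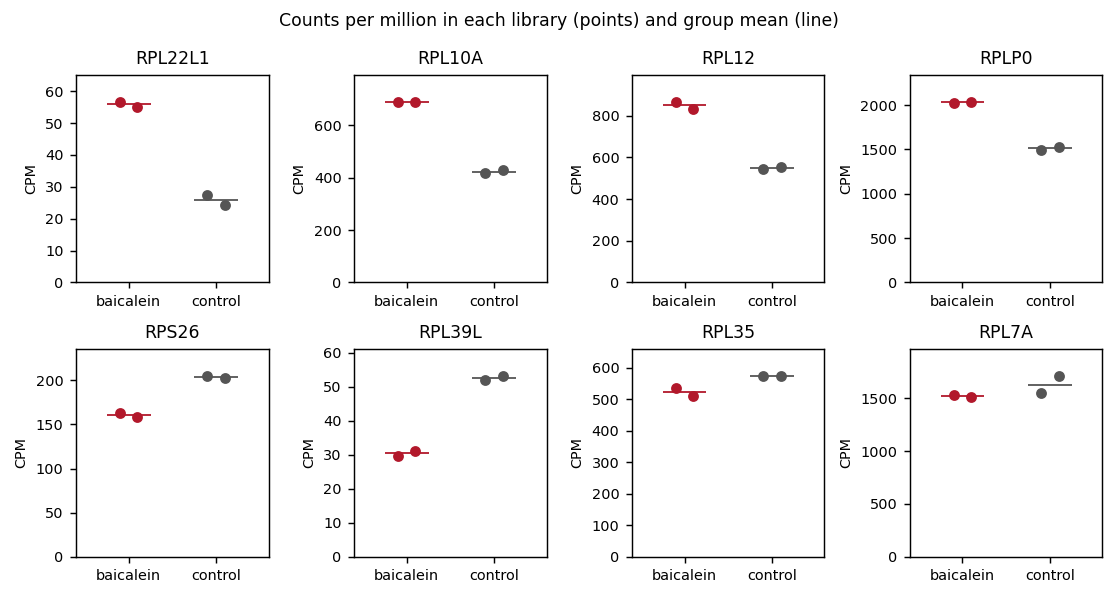
CPM (TMM-scaled, linear axis from 0) in each library as points, baicalein left and control right, with the group mean as a line, for 4 members that rose and 4 that fell. In RPL22L1, RPL10A, RPL12 and RPLP0 both baicalein libraries lie well above both controls, in RPS26 and RPL39L well below them, and in RPL7A the baicalein libraries lie just under control 1 with control 2 apart.

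Of 6 paralogs tested, 1 rose, 3 fell (RPL10L among them) and 2 did not pass, where 37.4% of all tested genes were higher and 37.6% lower. RPL22L1, the second gene for the RPL22 protein, which binds RNA outside the ribosome as well, had the largest rise of all members, with 56.7 and 55.0 CPM in baicalein, against 27.3 and 24.3 CPM in control (1.12 ± 0.06, adjusted p = 6.24e-14). RPL22 itself had 349.8 and 347 CPM in baicalein, against 334 and 317.5 CPM in control (0.10 ± 0.04, adjusted p = 0.0467), a call lost with upper quartile scaling, with no filter and without either baicalein library, and its estimate was -0.01 with library totals and with the length and GC correction. As a share of the counts of the pair, which needs no scaling between libraries, RPL22L1 made up 14.0% and 13.7% in baicalein and 7.56% and 7.11% in control. The share in either baicalein library was above that in either control.

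RPL39L, a paralog of RPL39 known in mouse for its role in sperm formation, moved the other way. It had 29.7 and 31.2 CPM in baicalein, against 52.0 and 53.2 CPM in control (-0.79 ± 0.05, adjusted p = 5.78e-12). RPL39 did not pass, with 77.1 and 73.0 CPM in baicalein, against 75.5 and 66.1 CPM in control (0.09 ± 0.06, adjusted p = 0.168), and its estimate turned to -0.02 with library totals. RPL39L was 27.8% and 29.9% of the pair in baicalein and 40.8% and 44.6% in control. In T47D controls the paralog thus contributed a large minority of the pair's reads, and a smaller one in both baicalein libraries.

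RPL10L, an intronless copy of RPL10 used in mouse testis, had 0 and 0 counts in baicalein, against 21 and 12 counts in control (0.445 and 0.255 CPM). Its mean control level lay 5.17-fold above a floor of 3 counts in each baicalein library (mean 0.0677 CPM), without error on the control counts. It passed the filter for tested genes only through the controls, so its call (adjusted p = 1.03e-05) is no independent support for a fall. That call is counted among the members and paralogs called lower and in the test beyond 1.5-fold. RPL10L is close in sequence to RPL10, so that reads could be split between them, and its value is uncertain at this depth.

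RPL26L1 had 19.97 and 20.46 CPM in baicalein, against 23.5 and 21.8 CPM in control (-0.17 ± 0.07, adjusted p = 0.0289), and lost its call in DESeq2 and in fits without control replicate 1, baicalein replicate 1 or baicalein replicate 2. Its partner RPL26 had 634 and 614 CPM in baicalein, against 507 and 522 CPM in control (0.28 ± 0.04, adjusted p = 2.30e-06). RPL26L1 was 3.05% and 3.22% of the pair in baicalein and 4.43% and 4.01% in control. The share of RPL26L1 was lower in both baicalein libraries than in either control. RPS27L, a p53-responsive paralog of RPS27, did not pass, with 30.4 and 32.1 CPM in baicalein, against 32.2 and 29.1 CPM in control (0.02 ± 0.06, adjusted p = 0.737). RPS27 rose, with 319.8 and 309.7 CPM in baicalein, against 244 and 269 CPM in control (0.29 ± 0.05, adjusted p = 8.21e-06). The estimate of RPS27L turned to -0.18 (adjusted p = 0.00218) with the length and GC correction and was negative with upper quartile scaling, library totals and without control replicate 2 or baicalein replicate 2. The share of RPS27L in the pair was 8.67% and 9.38% in baicalein and 11.6% and 9.75% in control, close enough that control replicate 2 and baicalein replicate 2 nearly met.

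The groups overlapped in the pair RPL36AL and RPL36A. RPL36AL, the autosomal copy of the X-linked RPL36A, held 74.2% and 75.4% of the pair's counts in baicalein and 74.3% and 74.7% in control. The read-through locus RPL36A-HNRNPH2 shares 333 exon bases with RPL36A. It had 6952 and 4688 counts in baicalein and 5258 and 5115 in control, where RPL36A had 4148 and 2611, and 3367 and 3474. The pair's shares leave that locus out, and how reads were split between the 2 rows was not tested. RPL36AL had a log2 fold change of 0.03 ± 0.04 (adjusted p = 0.560) and RPL36A one of 0.01 ± 0.05 (adjusted p = 0.853), both of them negative with upper quartile scaling, library totals and the length and GC correction. RPL36AL was called lower with the length and GC correction (-0.17, adjusted p = 0.00795) and higher without control replicate 2 (0.07, adjusted p = 0.0343). RPL3, the partner of RPL3L, rose, with 1245 and 1264 CPM in baicalein, against 1016 and 1075 CPM in control (0.26 ± 0.04, adjusted p = 4.44e-06). Pairs of like sequence can share reads, and the sources used here do not say how the authors' counting divided them.

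**Figure D4:**
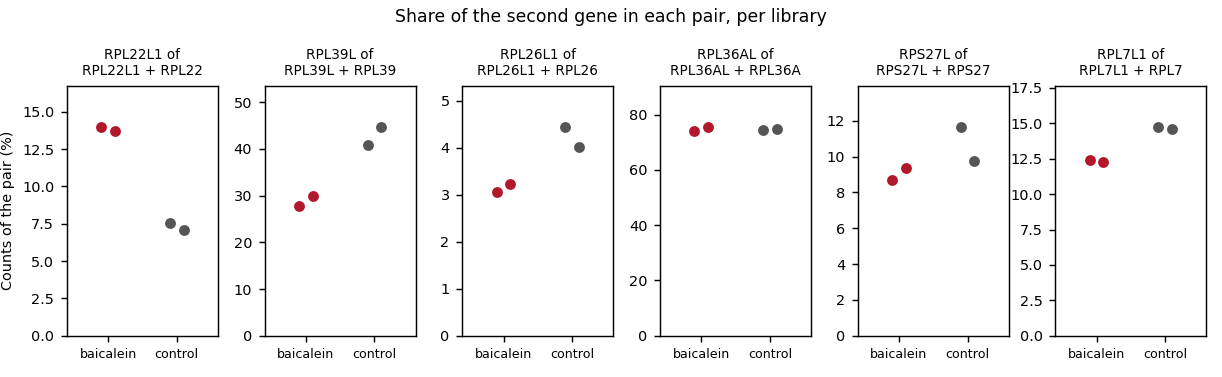
Counts of the second gene as a percent of the counts of both genes of a pair, per library, baicalein left and control right, each panel on its own axis from 0. RPL22L1 holds about 14% of its pair in baicalein and about 7% in control, RPL39L, RPL26L1 and RPL7L1 hold less in baicalein than in control, RPS27L nearly overlaps and RPL36AL overlaps; no scaling between libraries enters these shares.

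The 2 members that are no proteins of the mature ribosome both fell. RPS19BP1, a binding partner of RPS19 and of the deacetylase SIRT1, had 47.9 and 48.7 CPM in baicalein, against 53.7 and 56.4 CPM in control (-0.19 ± 0.05, adjusted p = 0.00180), but the call was lost without baicalein replicate 1 and a correction for exon length and GC content turned it to 0.13 (adjusted p = 0.0028). RPL7L1, a nucleolar relative of RPL7, had 177 and 179.7 CPM in baicalein, against 203 and 194 CPM in control (-0.15 ± 0.04, adjusted p = 0.00394), a call lost without either baicalein library. RPL7 rose, with 1249 and 1286 CPM in baicalein, against 1174 and 1137 CPM in control (0.13 ± 0.04, adjusted p = 0.00442), its call being lost with library totals (0.03), with the length and GC correction and without baicalein replicate 2. RPL7L1 was 12.4% and 12.3% of the pair in baicalein and 14.7% and 14.6% in control.

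Among the read-through loci, RPL36A-HNRNPH2 rose, with 127 and 126 CPM in baicalein, against 111 and 109 CPM in control (0.20 ± 0.04, adjusted p = 0.000171). RPS10-NUDT3 fell, with 17.5 and 20.4 CPM in baicalein, against 24.7 and 20.6 CPM in control (-0.27 ± 0.09, adjusted p = 0.0160), and baicalein replicate 2 nearly met control replicate 2. Its values were -0.14 without control replicate 1 and -0.15 without baicalein replicate 1, neither called. RPL17-C18orf32 did not pass, with 31.9 and 31.0 CPM in baicalein, against 31.0 and 25.7 CPM in control (0.15 ± 0.07, adjusted p = 0.0694). These loci share exons with RPL36A, RPS10 and RPL17, and over more bases with their other neighbours. RPL36A-HNRNPH2 shares 362 bases with HNRNPH2 and 333 with RPL36A. RPS10-NUDT3 shares 4286 bases with NUDT3 and 929 with RPS10. RPL17-C18orf32 shares 918 bases with C18orf32 and 611 with RPL17. Reads of these rows thus cannot be assigned to the loci alone, and which neighbour their changes follow was not tested.

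Of the core genes 75.3% were called in either direction, beside 75% of all tested genes. The 19 that did not pass had estimates between -0.09 and 0.09. RPS24, a Diamond-Blackfan anaemia gene, had 885 and 888 CPM in baicalein, against 886 and 888 CPM in control, the values of all 4 libraries lying together (0.00 ± 0.04, adjusted p = 0.987). RPSA, a small subunit protein also known as the laminin receptor precursor, had 764 and 776 CPM in baicalein, against 807 and 801 CPM in control (-0.06 ± 0.04, adjusted p = 0.153). RPS15, a protein of the 40S head, had 304 and 297 CPM in baicalein, against 307 and 334 CPM in control (-0.09 ± 0.05, adjusted p = 0.0727). RPSA was called lower with upper quartile scaling (-0.09), with library totals (-0.17), with the length and GC correction (-0.09) and without control replicate 2 (-0.06). RPS24 was called lower with library totals (-0.10) and with the length and GC correction (-0.09). RPS15 was called lower with upper quartile scaling (-0.12), with library totals (-0.20) and without control replicate 1 (-0.15), but higher with the length and GC correction (0.28, adjusted p = 1.56e-08). RPL8 had 0.05 ± 0.04 (adjusted p = 0.287) and became 0.35 (adjusted p = 3.26e-11) with the length and GC correction. The other core genes that did not pass were RPS9, RPS16, RPS20, RPS21, RPS25 and RPS27A (estimates of 0.02 to 0.09) in the small subunit, and RPL6, RPL21, RPL23A, RPL27, RPL29, RPL31, RPL36A, RPL39 and RPL41 (estimates of 0.01 to 0.09) in the large one. All of these positive estimates became negative with library totals as the only scaling. The length and GC correction instead gave calls to 10 of the 19, 7 higher (RPS9 0.25, RPS16 0.20, RPS20 0.11, RPS21 0.12 and RPL29 0.26, with RPS15 and RPL8) and 3 lower (RPSA, RPS24 and RPL41, at -0.08). Leaving out either control also gave calls to some of the 19. The shares of all tested genes called with the length and GC correction or without a control are not given here.

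Levels can be set side by side between genes only per length. In control, RPS2, at the mRNA entry channel, had the highest level per kilobase of annotated exons, 831 CPM per kb in baicalein and 751 CPM per kb in control. RPL7A followed with 677 CPM per kb in baicalein and 726 CPM per kb in control, and RPL19 with 762 CPM per kb in baicalein and 643 CPM per kb in control. The median core gene had 129 CPM per kb in control and the lowest, RPS29, had 11.7 CPM per kb, where its annotated exons span 9845 bases. Per kilobase of a single reference transcript RPS2 and RPL7A were again first and second, at 1839 and 1827 CPM per kb in control, close enough to change places with the controls' spread, RPL19 was 7th, and the lowest was RPL28 at 47.7 CPM per kb. RPS2 rose slightly, with 2025 and 1986 CPM in baicalein, against 1733 and 1891 CPM in control (0.15 ± 0.04, adjusted p = 0.00352), a call lost with library totals (0.04) and without baicalein replicate 1. RPL19 rose, with 1349.9 and 1333 CPM in baicalein, against 1114 and 1149.6 CPM in control (0.24 ± 0.04, adjusted p = 6.82e-06). The order of the core genes was nearly the same in both conditions, with Pearson's r of 0.989 between log2 mean CPM in baicalein and in control across the 77 genes, which share libraries. Across the same genes, as a description, the change had a correlation of 0.07 with log2 exon length and 0.05 with log2 control CPM.

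Outside the family, genes with a pyrimidine run at a start were called in both directions: of 811 tested non-members with a run, 43.5% were called higher and 38.7% lower, with a median log2 fold change of 0.06. The 11296 tested non-members without a run had 39.1% higher and 40.7% lower, with a median of -0.02. Among members in the promoter table, the 48 with a run and the 22 without had the same median of 0.15, with 32 higher and 3 lower among those with a run, and 12 higher and 4 lower among those without.

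Partner genes were described from lists chosen for this family. Their counts stand beside 37.4% of all tested genes called higher and 37.6% lower, or 32.3% and 42.1% with library totals alone. Ribosomal proteins with other symbols were looked at too: RACK1, a signalling scaffold on the 40S subunit, had 1059.9 and 1060.4 CPM in baicalein, against 784 and 773 CPM in control (0.45 ± 0.04, adjusted p = 6.67e-10), and FAU, whose product is cut into a ubiquitin-like protein and a small subunit protein, rose by 0.17 ± 0.04 (adjusted p = 0.00194). Of 28 translation factors and other genes known for TOP messages, 22 rose (78.6%), 2 fell (7.14%) and 4 did not pass, with a median of 0.30. EIF3A, the largest subunit of initiation factor eIF3, had 655 and 660.3 CPM in baicalein, against 368 and 381 CPM in control (0.81 ± 0.04, adjusted p = 3.64e-14). EEF2, the translocation factor that docks at the stalk, had 3696 and 3728 CPM in baicalein, against 2351 and 2533 CPM in control (0.60 ± 0.04, adjusted p = 4.51e-12). HNRNPA1, an RNA-binding protein, was one of the 2 that fell, with 899 and 865 CPM in baicalein, against 1283 and 1299 CPM in control (-0.55 ± 0.04, adjusted p = 2.09e-11).

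Of 72 genes for RNA polymerase I and nucleolar processing, 42 rose (58.3%), 16 fell (22.2%) and 14 did not pass (median 0.20). By library totals 33 were higher and 22 lower, with a median of 0.09. DDX21, a nucleolar helicase, had 617 and 630.1 CPM in baicalein, against 300.01 and 298 CPM in control (1.06 ± 0.04, adjusted p = 2.80e-16). RRP12 rose by 1.10 ± 0.05 (adjusted p = 2.51e-15). NOP56, a core protein of the box C/D particles that guide rRNA methylation, had 109 and 106 CPM in baicalein, against 212 and 226 CPM in control (-1.03 ± 0.05, adjusted p = 3.91e-15), and FTSJ3, an rRNA methyltransferase, fell by 0.86 (SE 0.05, adjusted p = 1.87e-13). This list held large changes in both directions.

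Of 13 genes listed as chaperones and importers of ribosomal proteins, 6 rose, 6 fell (46.2% each) and 1 did not pass. RPS19BP1, a member described above, was among the 6 that fell. Over all tested genes 37.4% were higher and 37.6% lower. TNPO1, an importer, rose by 0.74 ± 0.05 (adjusted p = 2.19e-12), while IPO9, another importer, fell by 0.84 (SE 0.04, adjusted p = 4.71e-14). HEATR3, which brings RPL5 to the nucleus, had 9.36 and 9.56 CPM in baicalein, against 20.3 and 19.9 CPM in control (-1.09 ± 0.08, adjusted p = 1.36e-11). RPL5 itself rose, as described above.

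Of 16 genes of TOP message control through mTORC1, 10 rose (62.5%), 5 fell (31.25%) and 1 did not pass (median 0.20). By library totals 7 were higher and 5 lower, with a median of 0.09. LARP1, the TOP-binding repressor, had 639 and 637 CPM in baicalein, against 396 and 404 CPM in control (0.67 ± 0.04, adjusted p = 8.13e-13). EIF4EBP1 and EIF4EBP2, repressors of the cap-binding protein eIF4E, moved in opposite directions. EIF4EBP1 had 120.2 and 120.3 CPM in baicalein, against 62.6 and 66.5 CPM in control (0.90 ± 0.04, adjusted p = 2.71e-14). EIF4EBP2 had 98.4 and 95.9 CPM in baicalein, against 186 and 178 CPM in control (-0.91 ± 0.04, adjusted p = 1.65e-14). Protein amounts and phosphorylation were not measured.

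Of 13 transcription factors described at ribosomal protein promoters, 6 rose (46.2%), 4 fell (30.8%) and 3 did not pass. Over all tested genes 37.4% were higher and 37.6% lower. The list had 3 higher and 5 lower by library totals, and 3 higher and 6 lower with the length and GC correction. MYC had 128 and 139 CPM in baicalein, against 80.2 and 86.5 CPM in control (0.68 ± 0.05, adjusted p = 1.72e-11), and GABPB1, the partner of GABPA, rose by 0.73 ± 0.05 (adjusted p = 3.09e-11). E2F1, a factor of the cell cycle, fell by 3.86 (SE 0.06, adjusted p = 6.98e-23).

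The ribosome of mitochondria had the opposite tilt. Of 78 mitochondrial ribosomal protein genes tested, 14 rose (17.9%), 50 fell (64.1%) and 14 did not pass. Over all tested genes 37.4% were higher and 37.6% lower. The median log2 fold change of the mitochondrial set was -0.22 (quartiles -0.39 and -0.03). MRPS34 had 60.05 and 56.9 CPM in baicalein, against 138 and 141 CPM in control (-1.25 ± 0.04, adjusted p = 5.33e-17), and MRPL12, which also binds the mitochondrial RNA polymerase, fell by 0.64 (SE 0.04, adjusted p = 1.02e-11). MRPS6 rose by 1.04 ± 0.05 (adjusted p = 1.24e-14). With library totals as the only scaling the counts were 9 higher and 58 lower, the tilt of the cytosolic set being 32 higher and 13 lower in that setting. The difference between the cytosolic and mitochondrial sets was not tested.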

How the data were processed

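Poly(A) RNA of T47D cells was measured in 2 baicalein and 2 control libraries. The authors' deposited table holds raw counts in whole numbers, one row per gene and not scaled to depth. Per the submitters' processing notes, the build was GRCh38 and the tools were STAR 2.7.8a, RSEM 1.3.3, cutadapt 2.3, DESeq2 1.34 and FastQC 0.11.8, with no role stated for any. The sources used here give neither the annotation release nor the strand setting, nor whether the counts are rounded RSEM estimates. The smallest row total was 10, and 0 columns belonged to other samples. Names matched 20470 of 20515 identifiers, 17419 with a symbol. Gene types, coordinates and lengths came from GENCODE 29 (19849 identifiers), which may not be the authors' release. The rule left out 9 RPS6K kinases and 164 pseudogenes, 1 of them typed as protein-coding. Pseudogene rows held 1.77% and 1.69% as many counts as the members in baicalein and 1.76% and 1.72% in control.

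Differences were tested in R 4.3.3 with edgeR 4.0.16 (robust quasi-likelihood fit, TMM factors of 0.964 and 0.965 in baicalein and 1.042 and 1.031 in control, filterByExpr with a minimum count of 10 and total of 15). The filter left out 2146 genes. The standard error is the log2 fold change divided by the square root of F. A floor of 3 counts was 0.0548 to 0.0805 CPM and covers counting error only. Replicates differed beyond counting error, the mean chi-square of a gene being 2.43 in baicalein and 9.61 in control (1 expected). Whether replicate libraries stem from separate cultures is not in the labels, and each p-value reflects just the spread among these 4 libraries, which may be technical.

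The members, lists, tests and rule for named genes were chosen with earlier results of these data known. The rule names the 8 largest rises and falls among called members, paralogs with partners, the 3 members with the highest counts per length in control, RPL5, RPL11, members that did not pass, and up to 3 genes per list and direction, of which some are printed and some are not reported here. The lists held 217 genes, 6 in more than 1 list. Alternatives were other scalings (library totals, upper quartile, size factors of DESeq2, TMM without the members), no filter, 50 counts in 2 libraries, DESeq2 1.42.0, limma-voom (limma 3.58.1), a threshold of 0.01, a test against 1.5-fold, the replicate number as a block, a trend on exon length and GC content (mgcv 1.9.3, 17867 genes), and leaving out each library. The fit was also tested on simulated counts drawn for baicalein over control (18073 genes): 62%, 94%, 92% and 100% of 50 genes each changed by 1.2, 1.5, 2 and 4 fold were called in the right direction, and 38 of 17873 unchanged genes were called. The changed genes had at least 50 expected counts at mean depth and random directions. In the data 75% of tested genes were called, and rates with so many changed genes were not tested.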

Additional observations from a re-analysis of the deposited data

How the results depend on the processing

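The scaling sets how many small rises are called, since most lie near 0.15. Library totals alone gave 32 members higher (small subunit 10 higher and 6 lower, large subunit 22 higher) and a median of 0.05; upper quartile scaling gave a median of 0.12 and 5 small subunit members lower, and the length and GC correction a median of 0.11 and 5 small subunit members lower. A threshold of 0.01 left 6 members lower, 4 of them large subunit. The test beyond 1.5-fold gave 2 members higher and 2 lower (large subunit 2 and 2, small subunit 0 and 0), 21 partner genes higher and 10 lower, and 3090 and 3581 of all genes. The members' share of counts had a ratio of 1.07 without mitochondrially encoded genes and 1.08 without the 100 most abundant other genes. Levels per length moved with the length used, to 1839 CPM per kb for RPS2, 1827 for RPL7A and 1077 for RPL19. The causes of these shifts were not tested, beyond that the 1.5-fold test asks for a larger change.

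Leaving out one library gave 42 to 64 members higher and 3 to 9 lower, with 3 lower without baicalein replicate 1 and 5 without baicalein replicate 2. The small subunit had 15 to 26 higher and 1 to 4 lower (1 without baicalein replicate 1), the large subunit 27 to 40 higher and 2 to 5 lower (2 without either baicalein library), and the median lay between 0.14 and 0.18. The partner lists had 85 to 102 higher and 66 to 85 lower. In these fits the group left with 1 library borrows its spread from the other. Same-numbered libraries did not deviate together (correlation 0.0243 over 13147 genes), and with the replicate number as a block 55 members were higher and 9 lower, the calls of RPL22 and RPL7A being lost and that of RPL17-C18orf32 gained among the named members.

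Signs turned mostly for members with estimates near 0. Library totals turned 20 members: RPL27A (-0.01), RPL21 (-0.05), RPL22 (-0.01), RPL23A (-0.06), RPL27 (-0.07), RPL29 (-0.02), RPL31 (-0.03), RPL36A (-0.09), RPL36AL (-0.07), RPL39 (-0.02), RPL41 (-0.05), RPL6 (-0.04), RPL8 (-0.06), RPS16 (-0.01), RPS20 (-0.03), RPS21 (-0.04), RPS25 (-0.02), RPS27A (-0.04), RPS27L (-0.08) and RPS9 (-0.08). The length and GC correction turned 17: RPS15A (-0.00), RPL27A (-0.03), RPL14 (-0.07), RPL37A (-0.01), RPL21 (-0.02), RPL22 (-0.01), RPL31 (-0.04), RPL35 (0.02), RPL36A (-0.07), RPL36AL (-0.17), RPL39 (-0.02), RPL41 (-0.08), RPL6 (-0.01), RPS15 (0.28), RPS19BP1 (0.13), RPS27A (-0.02) and RPS27L (-0.18). Upper quartile scaling turned 4: RPL36A (-0.02), RPL36AL (-0.00), RPS27L (-0.01) and RPS9 (-0.01). RPS24 was 0.00 with DESeq2 size factors, in DESeq2 and with scaling without the members, and 0.01 with the filter of 50 counts. Leaving out one library put RPS24 between -0.01 and 0.01, RPL36A between -0.04 and 0.07, RPL36AL between -0.01 and 0.07, RPS27L between -0.04 and 0.09, and RPS9 between -0.03 and 0.08.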

Other observations

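RPL7P1, a processed pseudogene of RPL7 that the rule leaves out, had 1727 and 385 counts in baicalein (31.6 and 10.3 CPM), against 460 and 383 counts in control (9.74 and 8.15 CPM). Baicalein replicate 1 alone stood high, whereas RPL7 itself was close in both baicalein libraries, at 1249 and 1286 CPM. The pseudogene was picked after its values were seen. RPS2P5, a pseudogene of RPS2, had 24075 and 16325 counts in baicalein, against 18084 and 18120 counts in control.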
